A study of Rattus norvegicus with 75 samples.

Results

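The lithium effect was compared between 2 segments of the rat kidney tubule, the cortical collecting duct (CCD) and the cortical thick ascending limb (cTAL), 72 h after the start of feeding. For each gene the quantity of interest was the difference between control and lithium in CCD minus the same difference in cTAL, on the scale log2(TPM + 1), where TPM, a length-corrected measure, is the share of all transcripts that a gene takes. All 58 libraries of the 4 groups at 72 h entered, of 75 libraries in the series: 17 CCD libraries from control rats and 19 from lithium rats, and 12 cTAL libraries from control rats and 10 from lithium rats. All rats were male Sprague-Dawley rats of 120 to 160 g that were housed singly, and the lithium groups were fed lithium chloride in their food (40 mM per kg) while controls ate food without it. Segments were dissected by hand, so a library is a small piece of tubule with whatever cells adhered to it, and fewer cells of a type cannot be told apart from less RNA per cell. No rat is named in the labels, so p-values measure how much single libraries vary, and that variation may be technical. Of 32754 genes, 13083 had at least 1 TPM in at least 10 libraries and were tested.

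The collecting duct is the last part of the nephron to adjust urine. Its principal cells take up water through aquaporin 2 under vasopressin and sodium through the epithelial sodium channel, which also lets lithium in, and its intercalated cells handle acid and base. The thick ascending limb takes up salt without water through the sodium-potassium-chloride cotransporter Slc12a1 and makes uromodulin. Lithium inhibits glycogen synthase kinase 3 and inositol phosphatases, and it is known to drive collecting duct cells into the cell cycle while the duct loses its response to vasopressin.

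Each library carried the markers of the segment on its label. Summed over a list of 20 principal cell markers, CCD libraries held 10999.8 to 21572 TPM and cTAL libraries 1289 to 2379 TPM, and Umod averaged 64658 TPM in control cTAL and 67.5 TPM in control CCD. The cTAL libraries also held more of 16 immune markers, at a median of 3279 TPM in controls and 3459 TPM with lithium against 218 and 290 TPM in CCD. Libraries were not all independent of each other. By 7 genes with separate low and high states, the control libraries were divided into 4 sets (A to D) and the lithium libraries into 4 others (E to H). The number of sets was chosen and not estimated. Each set had consecutive library numbers and libraries of both segments. The labels do not say what a set is, and set A has a single cTAL library. The fit over libraries was therefore repeated on set means, with 4 control and 4 lithium values in each segment. In addition, the unnamed gene AC095947.2 stood at 107 to 1250 TPM in 11 libraries, namely 4 CCD and 3 cTAL lithium libraries and 4 cTAL control libraries, and at 0 in the others. These 11 were all the libraries of set H and all the cTAL libraries of set D. Counts without these 11 libraries are given beside the main counts. Leaving them out keeps 8 control and 7 lithium libraries in cTAL. A part of this transcript therefore cannot be told apart from the loss of these sets and of cTAL libraries.

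More genes were called for a difference between the segments than for a shared change. The 2 counts are not alike, since a shared change needs a call in each segment and cTAL has fewer libraries. With limma and Benjamini-Hochberg (BH) adjustment at an adjusted p under 0.05, the lithium effect differed between CCD and cTAL for 2000 of 13083 genes (15.3% called), of which 1550 (11.8%) were more positive in CCD and 450 (3.44%) more negative. The difference was at least 2-fold for 613 of the called genes, 547 more positive and 66 more negative. Within CCD alone 4105 genes were called (31.4%), 2487 higher with lithium (19.0%) and 1618 lower (12.4%). Within cTAL 306 genes were called (2.34%), 61 higher (0.466%) and 245 lower (1.87%). Across genes the 2 effects had a Pearson correlation of 0.00 over 13083 genes, which are not independent replicates and whose libraries share sets. This value pools genes that moved alike with genes that moved in opposite directions, which are sorted below.

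The direction split depends on the scaling of the libraries. Median-of-ratios scaling gave 1109 more positive and 857 more negative genes, and quantile normalization 1168 and 1049. The median difference over all genes was 0.08 as deposited, -0.01 after median-of-ratios scaling and -0.04 after quantile normalization, and small differences are to be read against that shift. On set means 485 genes were called (3.71%), 437 more positive (3.34%) and 48 more negative (0.367%), and all 485 had been called over libraries in the same direction. Each set holds both segments, and with the set as a block on the same means 489 genes were called, of which 394 were among the 485. Without the 11 libraries with AC095947.2, 1354 genes were called (10.3%), 985 more positive (7.53%) and 369 more negative (2.82%). On set means 1025 genes were called in CCD (7.83%), 801 higher (6.12%) and 224 lower (1.71%), and 1 in cTAL. The 4 lithium set means lay all above the 4 controls for 1788 genes in CCD (13.7%) and 63 in cTAL (0.482%), and all below them for 730 in CCD (5.58%) and 224 in cTAL (1.71%).

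Called genes were sorted by where and how they moved. Shared genes, called in both segments in the same direction, numbered 56. Opposite genes, called in both in different directions, numbered 112. CCD-only genes, called in CCD but not in cTAL and with a called difference, numbered 1597, of which 1234 rose and 363 fell. Their cTAL-only counterparts numbered 84, of which 25 rose and 59 fell. For another 204 genes the difference was called and neither effect was. For 2394 genes 1 effect was called but the difference was not, so that these cannot be assigned to a segment. In 1848 of these 2394 genes the 2 effects had the same sign. Of the CCD-only genes 1088 reached a mean of 5 TPM in a cTAL group, so for most of them the transcript was present in the segment where no change was called.

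**Figure D1:**
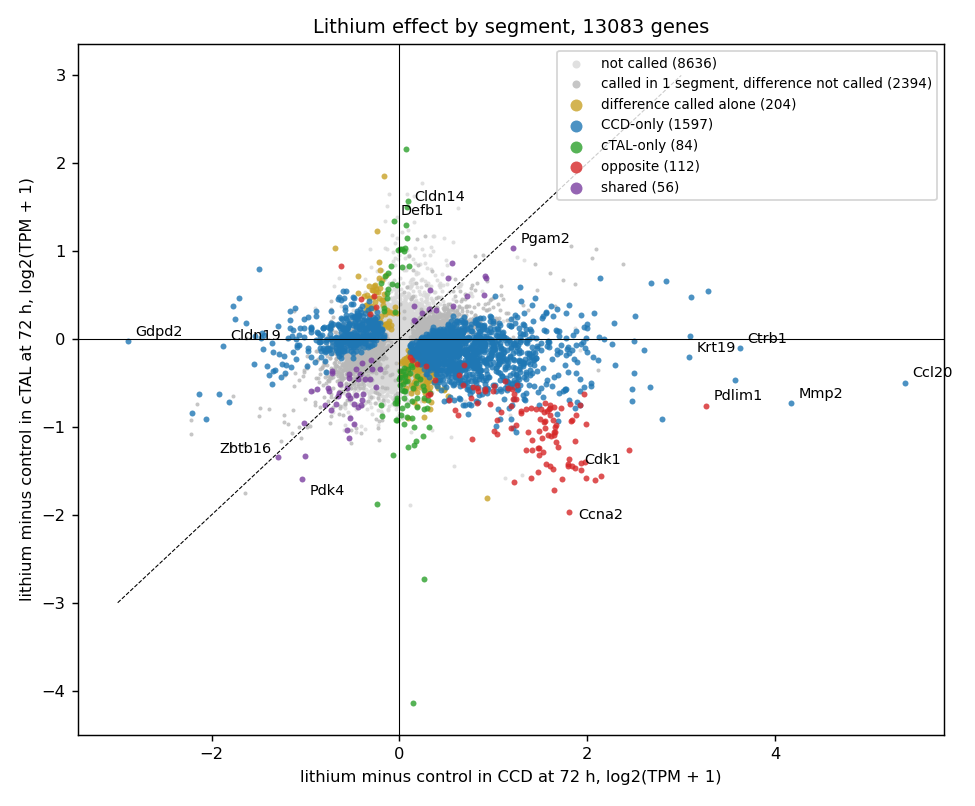
Lithium minus control at 72 h in CCD (x axis) against cTAL (y axis), both in log2(TPM + 1), for 13083 genes coloured by class, with the number of genes in each class in the legend. The 112 opposite genes lie mostly at the lower right, where 107 of them rose in CCD and fell in cTAL, and the dashed line marks equal effects.

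Many cell cycle genes rose with lithium in CCD and fell in cTAL. Of the 112 opposite genes, 107 rose in CCD and fell in cTAL, with medians over the class of 1.48 in CCD and -0.87 in cTAL, and 42 belonged to the lists of replication or mitosis genes, out of 81 list members tested. All 43 mitosis genes tested rose in CCD (19.0% of all genes did) and 31 fell in cTAL (1.87% of all genes), and the difference was called for 42. All 38 replication genes rose in CCD, 11 fell in cTAL, and the difference was called for 36. The median CCD effect was 1.53 for mitosis and 1.11 for replication, against 0.00 over all genes, and the median cTAL effect was -0.91 and -0.34, against -0.07. On set means the difference was called for 39 mitosis and 28 replication genes and none of either list was called in cTAL, and without the libraries with AC095947.2 the difference was called for 42 and 34.

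Promoter sequences are shown for 3 of these genes that hold such motifs, chosen after the matches were seen, because entry into replication and mitosis is known to be driven through E2F sites and, for mitosis genes, through CCAAT boxes and the cell cycle homology region, whose core is TTTGAA. Sequences are from RefSeq on the GRCr8 assembly and were matched by symbol. Each runs 5′ to 3′ on the strand of the gene over the 160 bases before its start, with matches to the CCAAT box, to TTTGAA and to either of the E2F motifs (TTTGGCGC or else TTTCGCGC) in capitals on both strands, so that a match on the other strand shows as its reverse complement.
Cdk1, chr20:19265133-19265292, plus strand: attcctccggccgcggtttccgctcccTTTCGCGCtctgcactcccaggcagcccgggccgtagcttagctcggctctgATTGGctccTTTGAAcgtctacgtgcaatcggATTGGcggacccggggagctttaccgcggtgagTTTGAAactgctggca
Spc25, chr3:74396719-74396878, minus strand: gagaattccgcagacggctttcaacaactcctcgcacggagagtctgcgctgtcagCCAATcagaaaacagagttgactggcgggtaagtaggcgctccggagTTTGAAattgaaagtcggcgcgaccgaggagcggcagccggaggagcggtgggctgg
Ect2, chr2:111966627-111966786, minus strand: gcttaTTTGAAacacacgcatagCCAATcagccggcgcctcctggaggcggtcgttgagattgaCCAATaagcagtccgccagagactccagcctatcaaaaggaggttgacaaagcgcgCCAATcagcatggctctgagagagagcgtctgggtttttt

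Cdk1 holds all 3 kinds of motif in this window, Spc25 a CCAAT box followed by TTTGAA, and Ect2 a run of CCAAT boxes with TTTGAA before the first. In the same window Cdkn3 holds CCAAT boxes and TTTGAA, and Tubb6, Cdca3, Spc24 and Uhrf1 hold a CCAAT box without TTTGAA. Tk1 and Pcna hold none of these motifs there, and Pcna has a CCAAT box further upstream, within 250 bases of its start. In the 250 bases before the start, on either strand, CCAAT was found in 29 of the 37 mitosis promoters that matched (78.4%) and TTTGAA in 19 (51.4%). The shares among the 9331 tested genes that matched were 35.8% and 10.3%, and among all 33469 RefSeq promoters 34.0% and 16.2%. An E2F motif was found in 8 of 31 replication promoters (25.8%) and in 1 of 37 mitosis promoters (2.7%), against 1.2% among tested genes and 0.636% among all promoters. Among the 31 replication promoters CCAAT was found in 18 (58.1%) and TTTGAA in 2 (6.45%). These are matches of letters and do not show that a factor bound there.

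Pdlim1 had the largest difference among the named opposite genes and is described below with the genes of CCD. Ccna2 (ENSRNOG00000015423), the cyclin that drives S phase and entry into mitosis, came next. In CCD its lowest, median and highest TPM were 10.2, 21.0 and 32.3 in controls and 50.5, 70.3 and 100.3 with lithium. In cTAL they were 3.22, 9.04 and 24.8 in controls and 0.12, 1.38 and 8.22 with lithium. All lithium libraries lay above all controls in CCD (as for 1.53% of all genes), whereas in cTAL lithium libraries were mostly lower and the groups overlapped. The effects were 1.80 (SE 0.19) and -1.97 (SE 0.24), and their difference of 3.77 (SE 0.31) had a limma adjusted p of 4.84e-15 over libraries and of 0.000325 on set means. All 4 lithium set means lay above the controls in CCD and below them in cTAL.

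Cdk1, the mitotic kinase whose promoter is printed above, showed the same arrangement. Its lowest, median and highest TPM in CCD were 30.0, 46.5 and 79.7 in controls and 141, 173 and 211 with lithium, with no overlap. In cTAL they were 4.16, 16.1 and 29.0 in controls and 0.21, 5.09 and 12.2 with lithium, and the groups overlapped. The difference of 3.33 (SE 0.29) was called (limma adjusted p = 6.07e-14, and 0.000325 on set means). Spc25, of the kinetochore, differed by 2.99 and Ect2, which organises the cleavage furrow, by 3.11, and for both all 4 lithium set means were above the controls in CCD and below them in cTAL.

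Most of the other opposite genes with the largest effects were also cell cycle genes. Ube2c, the ubiquitin-conjugating enzyme of the anaphase-promoting complex, rose by 2.15 (SE 0.19) in CCD and fell by 1.56 in cTAL. Rrm2, a subunit of ribonucleotide reductase, rose by 1.73 in CCD and fell by 1.59 in cTAL, and Cdca3, a mitotic entry factor, rose by 1.93 and fell by 1.49. Pbk, a mitotic kinase, Cdkn3, a phosphatase of cyclin-dependent kinases, and Tubb6, a beta tubulin, differed between segments by 3.36, 3.57 and 3.68. Aurkb, of the chromosomal passenger complex, and Spc24, the partner of Spc25, differed by 3.22 and 3.17. Ns5atp9, which encodes a factor that binds the polymerase clamp, differed by 3.71.

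Replication genes rose in CCD as well, and fewer of them were called in cTAL. Tk1, the thymidine kinase, had medians of 33.5 and 98.6 TPM in CCD controls and lithium and of 25.9 and 9.87 TPM in cTAL, with effects of 1.49 and -1.23 (limma adjusted p = 1.12e-13 and 4.75e-06). Pcna, the polymerase clamp, rose from a median of 124 to 249 TPM in CCD (0.96, SE 0.07) and stood at 78.7 and 70.0 TPM in cTAL (-0.22, SE 0.09, limma adjusted p = 0.198), so it is a CCD-only gene although its cTAL value was also lower. Uhrf1, which couples replication to DNA methylation, was called in both directions, with 1.86 and -1.16.

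**Figure D2:**
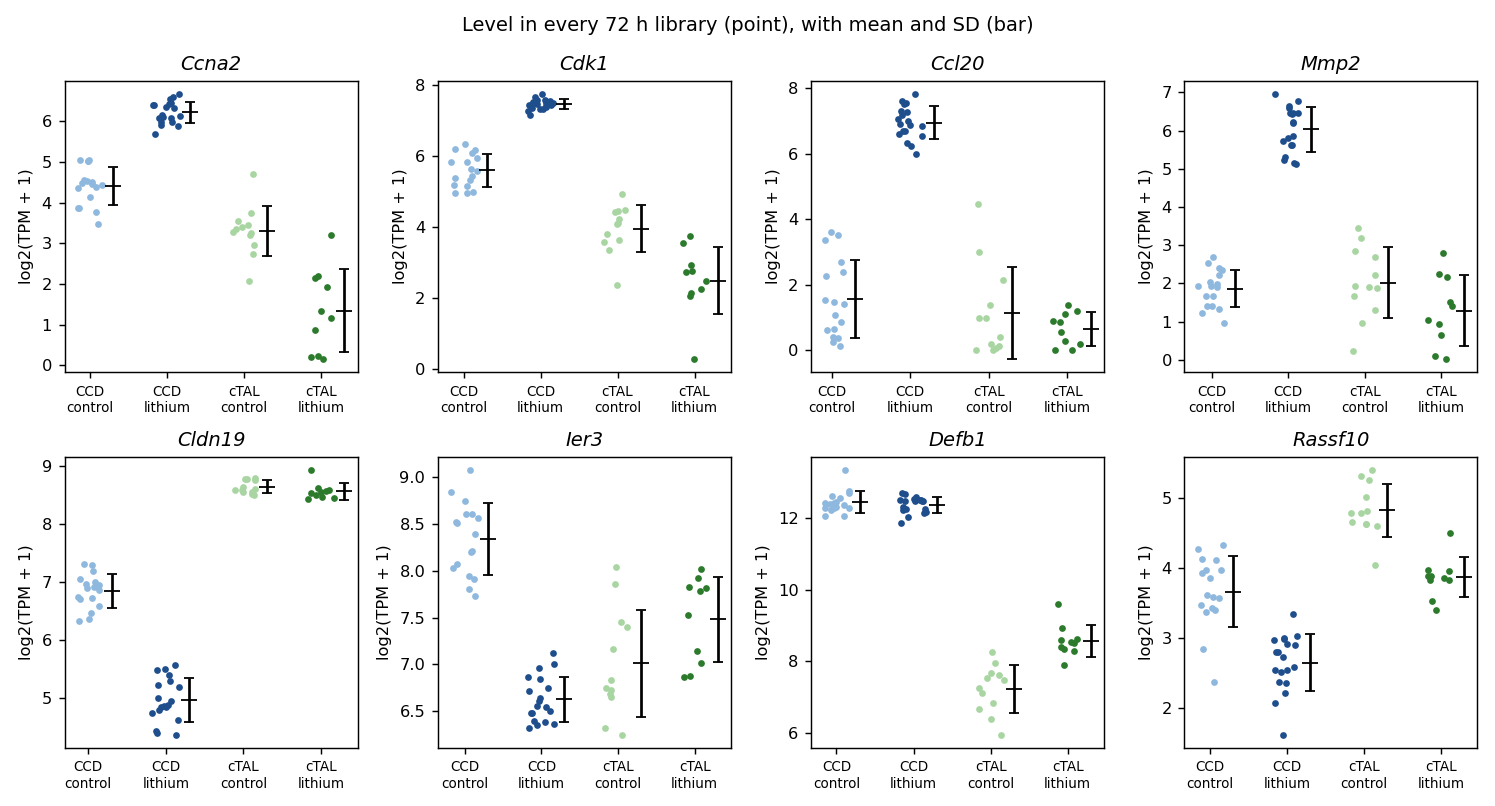
Level in log2(TPM + 1) (y axis) of 8 genes in every 72 h library (points) of the 4 groups (x axis), with mean and SD as black bars. Ccna2 and Cdk1 were higher with lithium in CCD and lower in cTAL, Ccl20 and Mmp2 were higher and Cldn19 and Ier3 lower with lithium in CCD, Defb1 was higher with lithium in cTAL, and Rassf10 was lower in both.

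The fall in cTAL rests on fewer values than the rise in CCD. On set means limma called no gene as opposite, because only 1 gene was called in cTAL at all (0.00764%), and 92 of the 112 opposite genes became CCD-only. At an unadjusted p under 0.05 in both segments, 96 of the 112 were opposite on set means (183 over all genes). Averaged over the 43 mitosis genes, the log2 level in cTAL was 2.57, 2.44, 2.07 and 2.56 in control sets A to D and 1.35, 1.27, 2.01 and 1.35 in lithium sets E to H. Every lithium set lay below every control set, and sets C and G lay closest together. Averaged over the 38 replication genes the cTAL sets overlapped, with lithium set G at 2.669 and control sets B and C at 2.662 and 2.479. Leaving out set C gave 14 opposite genes on set means, leaving out set G gave 6, and leaving out any other set gave 0. Without the libraries with AC095947.2, 33 of the 112 remained opposite and 78 became CCD-only. That fit also lacks all cTAL libraries of sets D and H. Of the 16 immune markers 0 was called in cTAL, where 2.34% of all genes were, and their median effect was -0.22. That count is close to the share over all genes and does not show that immune content was unchanged. The summed endothelial markers ranged from 247 to 641 TPM in cTAL control and from 129 to 795 TPM in cTAL lithium libraries. Their median list effect was -0.90 in cTAL and -0.73 in CCD. The part of immune and endothelial cells in the cell cycle result was not tested.

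**Figure D3:**
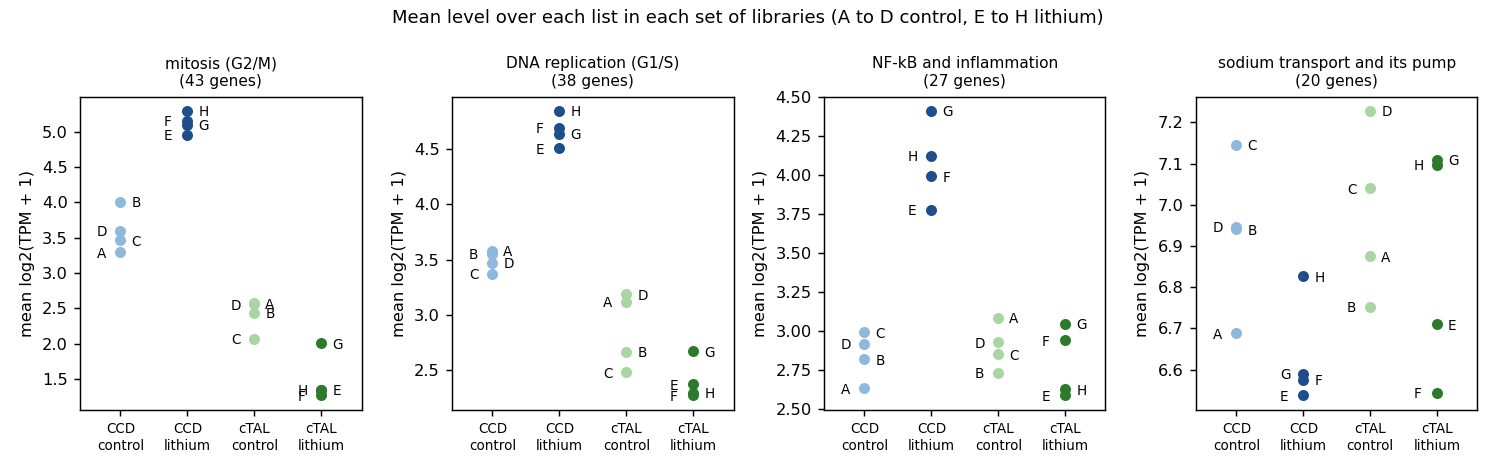
Mean level over the members of 4 gene lists, in log2(TPM + 1) (y axis), in each set of libraries (points, A to D control and E to H lithium) by segment (x axis). Mitosis genes stood at 4.96 to 5.30 in the 4 CCD lithium sets against 3.29 to 4.01 in the controls, and at 1.27 to 2.01 in the cTAL lithium sets against 2.07 to 2.57. Control and lithium sets overlapped for the replication list in cTAL and for the sodium transport list in both segments.

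The opposite direction, a fall in CCD with a rise in cTAL, was rare. It held for 5 genes that fell in CCD and rose in cTAL, namely Atp6v0d2, Sbspon, Napepld, Mboat1 and Tceal1, all but Atp6v0d2 named here after their values were seen. Atp6v0d2, a subunit of the vacuolar proton pump, stood at a median of 1471 TPM in CCD controls and 1107 with lithium, and at 135 and 179 TPM in cTAL. Its groups overlapped in both segments, its effects were -0.41 and 0.45, and the difference of -0.86 (SE 0.12) was called over libraries (limma adjusted p = 1.29e-07) and on set means (0.0158) but not with the set as a block (0.0891). Atp6v1c2, another subunit of the same pump, was in contrast a shared gene, lower in both. Acads, an enzyme of short-chain fatty acid oxidation, rose by 0.33 in CCD and fell by 0.62 in cTAL, and Uqcrfs1, of respiratory complex III, rose by 0.11 and fell by 0.20.

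The 3 largest differences of named genes, Ccl20, Mmp2 and Phlda3, belonged to genes that rose in CCD and were not called in cTAL. Ccl20 (ENSRNOG00000015992), a chemokine that attracts lymphocytes, ranged from 0.09 to 11.3 TPM in CCD controls (median 1.66) and from 62.4 to 223 TPM with lithium (median 120). In cTAL its median was 0.65 TPM in both groups, and the highest value, 20.9 TPM, was in a control library. The CCD groups did not overlap, and the cTAL groups did. The difference was 5.88 (SE 0.51; limma adjusted p = 4.28e-14, and 0.000348 on set means).

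Mmp2, a matrix metalloproteinase, followed with a difference of 4.90 (SE 0.37), from a median of 2.85 to 72.8 TPM in CCD and of 2.77 to 1.36 TPM in cTAL. Phlda3, a p53 target that restrains Akt, differed by 4.04 (SE 0.30), with medians of 1.60 and 32.1 TPM in CCD and of 1.48 and 0.72 TPM in cTAL. Pdlim1, an adaptor on actin fibres, differed by 4.02, and Ctrb1, which encodes a chymotrypsinogen, by 3.73, from a control median of 0 TPM to 12.2 TPM in CCD. Lcn2, an iron-siderophore binding protein and injury marker, differed by 3.71, with medians of 1.30 and 15.9 TPM in CCD and of 5.12 and 1.96 TPM in cTAL. All 5 differences were called on set means. In none of Mmp2, Phlda3, Ctrb1 and Lcn2 was the cTAL effect called, and in Pdlim1 it was, at -0.76 (limma adjusted p = 0.0396), which was lost without the libraries with AC095947.2.

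For some genes that rose in CCD, cTAL stood near or above the level of CCD with lithium in both of its groups. Krt19, a keratin of simple epithelia, had a median of 2.44 TPM in CCD controls and 47.8 TPM with lithium, against 155 and 143 TPM in cTAL. Cxcl16, a chemokine and scavenger receptor, went from 34.3 to 121 TPM in CCD and stood at 165 and 152 TPM in cTAL. Psmb8, an immunoproteasome subunit, went from 6.97 to 33.0 TPM in CCD and stood at 28.0 and 30.9 TPM in cTAL. The differences of effect were 3.30 (SE 0.49), 2.08 (SE 0.19) and 1.66 (SE 0.23). Among the other CCD-only genes with the largest effects, Cdkn1a, the cell cycle inhibitor p21, rose by 2.67 in CCD, Crabp1, a retinoic acid carrier, by 2.68, and Tacc3, which stabilises spindle fibres, by 1.96. The difference of Cdkn1a was called on set means (limma adjusted p = 0.0421) but not with the set as a block (0.0554). For Crabp1 it was not called on set means (0.118) but was with the block (0.0204). Tacc3 was called in both.

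Many inflammatory and interferon genes rose in CCD, where 19.0% of all genes did. None was called in cTAL, where 2.34% of all genes were, so that the absence of calls there is close to the share over all genes. Of 27 NF-kB and inflammation genes, 18 rose and 1 fell in CCD, 0 was called in cTAL, and the difference was called for 16 (10 on set means), all more positive in CCD, with median effects of 0.83 and -0.08. Icam1, a leukocyte adhesion receptor, and Bcl3, a nuclear partner of NF-kB, differed by 2.39 and 1.96. Of 24 interferon response genes 17 rose in CCD and 0 was called in cTAL, with the difference called for 10 (6 on set means), likewise all more positive (11.8% of all genes), and medians of 1.12 and 0.10. Psmb10, B2m and Tap1, which make and load peptides for antigen presentation, differed by 1.84, 1.48 and 1.43. Over all genes the medians were 0.00 in CCD and -0.07 in cTAL.

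Over all genes 19.0% rose and 12.4% fell in CCD, and the difference was called as more positive for 11.8% and more negative for 3.44%. Of 19 p53 targets 10 rose and 4 fell in CCD, and the difference was called for 9 more positive and 2 more negative genes (6 and 0 on set means), among them Ccng1, a cyclin induced by p53 (1.39), and Fas, the death receptor (1.37). Of 17 tubular injury genes 10 rose in CCD, with the difference called for 7, all more positive (5 on set means), including Tnfrsf12a, the receptor of Tweak (1.51). Of 29 actin and keratin genes 17 rose and 1 fell in CCD and 1 fell in cTAL, with the difference called for 13, all more positive in CCD (6 on set means). Krt8 went from a median of 396 to 892 TPM in CCD and stood at 63.3 and 50.3 TPM in cTAL, and Tagln2, an actin cross-linker, differed by 0.71. Of 8 Wnt target genes the difference was called for 3, Ccnd1 (1.42), Myc (0.83) and the inhibitor Wif1 (0.75), of which Ccnd1 alone was called on set means (limma adjusted p = 0.0433, and 0.0602 with the set as a block) and under the other scalings, where the median difference of the list turned from 0.07 to -0.03 (median-of-ratios) and -0.07 (quantile).

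Of the CCD-only genes 363 fell, among them junction, channel and signalling genes. Gdpd2, a glycerophosphodiesterase, had the most negative difference of the named genes, -2.86 (SE 0.24). It had a median of 22.5 TPM in CCD controls and 2.08 TPM with lithium, and it was at or below 0.23 TPM in every cTAL library. Cldn19 (ENSRNOG00000007922), a claudin of tight junctions known for the magnesium permeability of the thick limb, ranged from 78.6 to 156 TPM in CCD controls (median 118) and from 19.6 to 46.3 TPM with lithium (median 28.2). In cTAL it ranged from 362 to 443 TPM in controls (median 384) and from 341 to 486 TPM with lithium (median 370). CCD groups did not overlap (lithium lay wholly below control in CCD for 0.275% of all genes) and cTAL groups did, and the difference was -1.80 (SE 0.15; limma adjusted p = 8.3e-15, and 0.000348 on set means).

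Ier3, an immediate early gene that limits apoptosis, went from a median of 335 to 93.3 TPM in CCD and stood at 110 and 201 TPM in cTAL, a difference of -2.18 (SE 0.21). Kcnj13, an inward rectifier potassium channel, went from 75.5 to 21.8 TPM in CCD and stood at 33.4 and 49.6 TPM in cTAL, a difference of -1.98. In CCD neither gene had overlapping groups, and the cTAL effects of 0.47 and 0.22 were not called. Mt3, a metallothionein, and Txk, a kinase of the Tec family, differed by -2.15 and -1.82 from low cTAL levels. Defb29, a beta-defensin, differed by -2.30, with means of 46.4 and 17.3 TPM in CCD and of 74.5 and 131.6 TPM in cTAL. Cga, the alpha subunit of glycoprotein hormones, Lrrc31 and Ttll3 completed the 10 most negative differences among genes called both over libraries and on set means, at -1.53, -1.49 and -1.48. With the set as a block the call of Cga was lost (limma adjusted p = 0.0468 on set means and 0.071 with the block).

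Many immediate early genes fell in CCD, and most of the called differences from cTAL were more negative. In the list of AP-1 subunits and immediate early genes, 12 of 23 members were lower and 1 higher in CCD, 1 was lower in cTAL, and the difference was called for 6 more negative and 2 more positive genes (10 and 0 without the libraries with AC095947.2), against 3.44% and 11.8% of all genes. On set means it was called for Ier3 alone. Junb, a subunit of AP-1, went from a median of 913 to 212 TPM in CCD and stood at 28.4 and 29.7 TPM in cTAL, where a control library reached 246 TPM. Its difference of -1.51 (SE 0.37) was called over libraries (limma adjusted p = 0.00207) but not on set means (0.165). The same held for Zfp36, which destabilises cytokine messages (-1.37), Btg2 (-1.27), Fosb (-0.87) and Id1, a target of bone morphogenetic proteins (-1.15), whose call was also lost without the libraries with AC095947.2. Id2, of the same family as Id1, went from a median of 703 to 342 TPM in CCD and stood at 156 and 172 TPM in cTAL, and its difference of -1.06 was called both ways (0.0118 on set means). Ctgf, a TGF-beta target, differed by -1.46, over libraries only.

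Of 10 transport genes fixed as a panel, Scnn1a, Scnn1b, Avpr2 and Slc4a1 fell in CCD with a called difference from cTAL over libraries, and for none of the 10 was the difference called on set means, whereas with the set as a block Scnn1a was called. Scnn1a, the alpha subunit of the epithelial sodium channel, is expressed in both segments. It ranged from 86.2 to 242 TPM in CCD controls (median 192) and from 51.9 to 144 TPM with lithium (median 81.3), and in cTAL the medians were 93.3 and 93.7 TPM. The difference was -1.02 (SE 0.24; limma adjusted p = 0.0015, 0.229 on set means and 0.0306 with the set as a block). Avpr2, the vasopressin receptor, had medians of 694 and 420 TPM in CCD and of 64.4 and 58.4 TPM in cTAL, a difference of -0.66 (SE 0.18; 0.00483 and, on set means, 0.191). Scnn1b, the beta subunit of the channel, differed by -0.84 and Slc4a1, the basolateral chloride-bicarbonate exchanger of intercalated cells, by -0.83, from cTAL means of at most 7.24 and 0.634 TPM. At a pseudocount of 0.1 the difference of Slc4a1 went to -0.50 and was not called, and with no filter on low values it was not called either.

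For the remaining transport genes of the panel the difference was not called. Aqp2, the vasopressin-regulated water channel, fell by 0.52 in CCD, and its cTAL effect of -0.37 came from medians of 4.57 and 2.99 TPM, so that the difference was -0.15 (SE 0.21, limma adjusted p = 0.719). Aqp3, the basolateral water channel, Scnn1g, the gamma subunit of the sodium channel, and Slc26a4, the exchanger pendrin, gave 0.08 (SE 0.23), -0.27 (SE 0.16) and -0.05 (SE 0.26). The genes that define cTAL, Umod and Slc12a1, gave 0.41 (SE 0.41) and 0.35 (SE 0.45), and neither was called in cTAL, where the effects were 0.07 and -0.08. Log differences of genes near 0 in cTAL are damped by the added 1 TPM, and these values do not show that such genes respond alike.

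Among all genes 19.0% rose and 12.4% fell in CCD, and 2.34% were called in cTAL. Their difference was called as more positive for 11.8% and more negative for 3.44%. Over the whole lists, 12 of 20 principal cell genes fell and 1 rose in CCD. In cTAL 0 was called, which is close to the share over all genes. The difference was called as more negative for 7 (0 on set means, and Scnn1a with the set as a block). Kcne1, a potassium channel subunit, differed by -0.83 and Hsd11b2, which keeps cortisol and corticosterone off the mineralocorticoid receptor, by -0.60. Of 21 intercalated cell genes 18 fell in CCD, 1 rose and 1 fell in cTAL, and the difference was called for 6 (on set means for Atp6v0d2, and with the set as a block for 0), including the pump subunit Atp6v1b1 (-0.67), the oxoglutarate receptor Oxgr1 (-1.16) and the anion exchanger Slc26a7 (-1.03). Of 20 genes of sodium transport 10 fell and 1 rose in CCD. The difference was called for 5, among them Scnn1a and Scnn1b (0 on set means, and Scnn1a with the set as a block). Of 24 genes of cAMP and vasopressin signalling 3 rose and 4 fell in CCD, not far from the shares over all genes. The difference was called for 2, Avpr2 and Adcy3, an adenylyl cyclase (0.78), against 15.3% of all genes. On set means it was called for neither, and with the set as a block for Adcy3 (limma adjusted p = 0.0189).

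Of the 84 cTAL-only genes, Defb1 alone was also cTAL-only on set means. Defb1 (ENSRNOG00000013768), a beta-defensin secreted into urine, ranged from 61.1 to 302 TPM in cTAL controls (median 164) and from 238 to 780 TPM with lithium (median 368). In CCD it ranged from 4224 to 10361 TPM in controls (median 5315) and from 3729 to 6665 TPM with lithium (median 5659). The cTAL libraries overlapped between 238 and 302 TPM, and all 4 lithium set means lay above the controls. The effects were 1.35 (SE 0.17) in cTAL and -0.06 (SE 0.13) in CCD, and the difference of -1.41 (SE 0.21) was called over libraries (limma adjusted p = 5.72e-07) and on set means (0.00611).

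The other cTAL-only genes of largest effect, among those with a mean of at least 5 TPM in a CCD group, fell in cTAL except Rab38. Acot7, an acyl-CoA thioesterase, had medians of 33.6 and 9.48 TPM in cTAL and of 54.3 and 38.9 TPM in CCD, a difference of 1.24 (SE 0.34), and Klf10, a TGF-beta inducible repressor, of 30.2 and 16.9 TPM in cTAL and of 52.1 and 57.0 TPM in CCD, a difference of 1.35 (SE 0.31). Smox, Txnip, Wdr90, Per2, Smtn and Tsc22d2 had cTAL effects of -0.88, -0.88, -0.79, -0.77, -0.75 and -0.73, and Rab38 rose by 0.82. Txnip binds thioredoxin and limits glucose uptake, and Per2 is a repressor of the circadian clock. On set means limma called none of these 9 differences, and the smallest adjusted p were 0.0655 for Smox and 0.08 for Wdr90. With the set as a block Acot7 was called (0.307 on set means and 0.0249 with the block). Without the libraries with AC095947.2, Acot7 and Klf10 remained cTAL-only, and 19 of the 84 genes did in all.

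Of the 84 genes 44 reached a mean of 5 TPM in a CCD group. Kng2, Cldn14, Angptl4 and Fxyd1 did not. Kng2, a kininogen, ranged from 4.33 to 74.4 TPM in cTAL controls (median 20.8) and from 30.9 to 131 TPM with lithium (median 52.2), and did not exceed 0.3 TPM in CCD. Cldn14, a claudin that lowers calcium uptake in the thick limb, had cTAL medians of 8.63 and 20.5 TPM and rose by 1.50 (SE 0.25), with all 4 lithium set means above the controls. Neither difference was called on set means (limma adjusted p = 0.412 and 0.0894), and Cldn14 was not called in cTAL without the libraries with AC095947.2. Angptl4 and Fxyd1, chosen here after their values were seen, had the largest fall and rise of symbol-bearing cTAL-only genes. Angptl4, an inhibitor of lipoprotein lipase, ranged from 0.77 to 80.4 TPM in cTAL controls and from 0.28 to 4.61 TPM with lithium (-2.73, SE 0.44), and Fxyd1, a regulator of the sodium pump, from 10.3 to 25.9 and from 9.76 to 338 TPM (2.16, SE 0.35). Both overlapped between groups.

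Shared changes, which need a call in each segment, were the smallest class, and 41 of the 56 fell in both segments. Rassf10, a Ras-association protein, fell by similar amounts in both. Its lowest, median and highest TPM were 4.18, 11.3 and 19.1 in CCD controls and 2.09, 5.68 and 9.18 with lithium, and 15.5, 26.8 and 41.4 in cTAL controls and 9.65, 13.7 and 21.7 with lithium. Libraries overlapped in both segments, and set means did not. The effects of -1.01 (SE 0.14) and -0.96 (SE 0.18) were both called (limma adjusted p = 1.75e-08 and 0.000342), and their difference was -0.05 (SE 0.22). Without the libraries with AC095947.2 the cTAL effect was not called.

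Pdk4, which shuts off pyruvate dehydrogenase, had effects of -1.03 in CCD and -1.59 in cTAL, with medians of 28.8 and 11.3 TPM in CCD and of 64.6 and 21.0 TPM in cTAL. Zbtb16, a zinc finger factor induced by glucocorticoids, had -1.30 and -1.34, and Rcan2, a calcineurin inhibitor, -0.67 and -0.74. Atp6v1c2, the pump subunit named above, had -0.80 and -0.74, from medians of 531 to 334 TPM in CCD and of 6.16 to 4.07 TPM in cTAL. Tie1, an endothelial receptor, and the noncoding RNA Snhg11 fell as well, Tie1 with -1.01 and -1.33 and Snhg11 with -0.73 and -0.81. Tie1 belongs to another cell type. Of 9 endothelial markers 7 fell in CCD and 3 in cTAL (1 and 0 on set means), against 12.4% and 1.87% of all genes. Their part in the shared changes was not tested. Of the 15 shared genes that rose in both, those among the 10 of largest effect were Pgam2, the muscle phosphoglycerate mutase (1.21 and 1.03), Arhgap8 (0.91 and 0.72), and Kcne3, a potassium channel subunit (0.92 and 0.70).

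For 3 of the 56 shared genes, Rsrp1, Btg1 and Tmco1, the size of the shared change also differed between segments, with effects of Rsrp1 of -0.72 in CCD and -0.36 in cTAL. They were named after their values were seen, and Rsrp1 was also among 2 genes, with Uqcrfs1, whose cTAL lithium libraries all lay below all controls (0.0153%). On set means limma called no gene as shared. At an unadjusted p under 0.05 in both segments, 27 of the 56 moved in the same direction there (120 over all genes). For Zbtb16 control set C lay apart, at 1.24 on the log2 scale in cTAL against 3.33 to 3.90 in the other control sets. Without the libraries with AC095947.2, 11 of the 56 remained shared, among them Pdk4, Atp6v1c2 and Arhgap8.

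**Figure D4:**
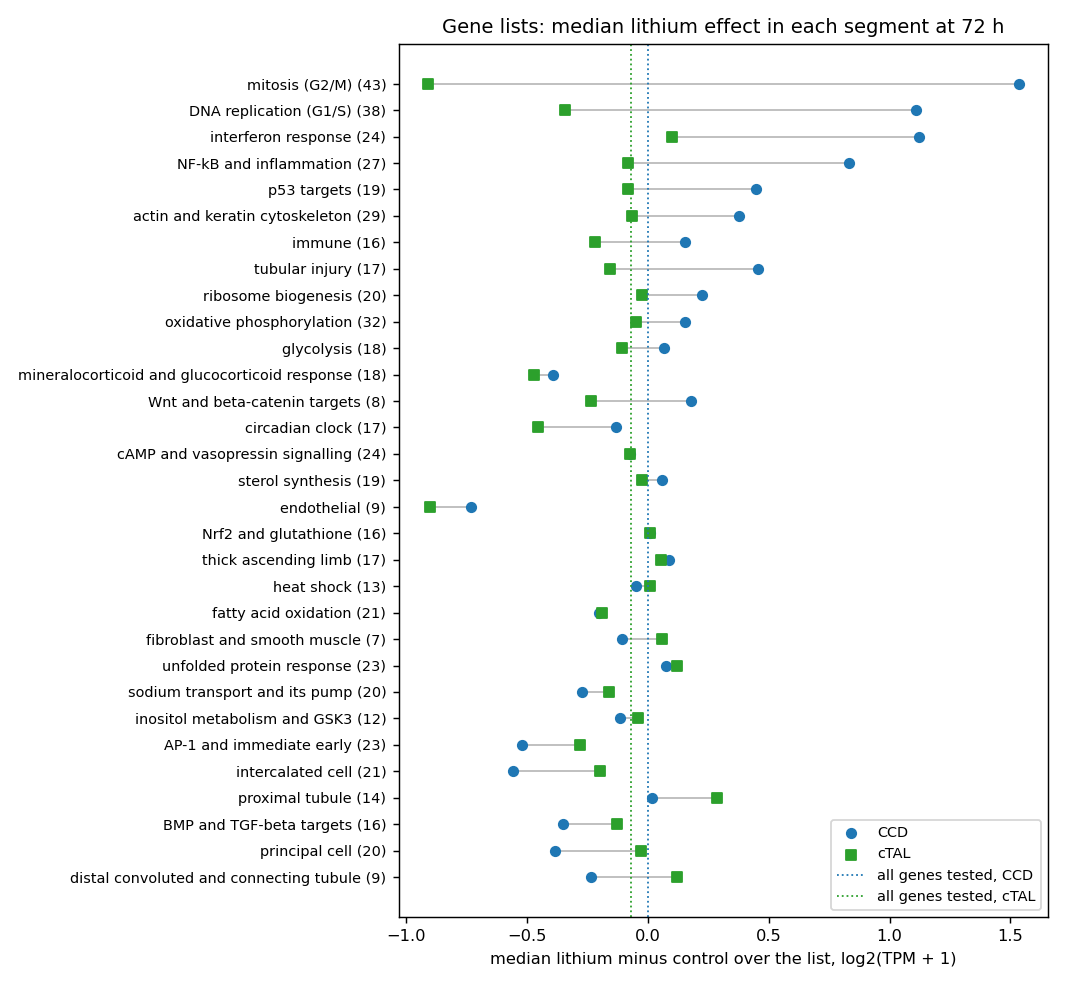
Median lithium effect over the tested members of 31 gene lists, in log2(TPM + 1) (x axis), in CCD (circles) and cTAL (squares), ordered by the median difference between segments, with the number of genes tested in brackets. Mitosis genes lie at 1.53 in CCD and -0.91 in cTAL, and the dotted lines mark the medians over all genes, 0.00 in CCD and -0.07 in cTAL.

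Metabolic lists differed between segments by small amounts, and their counts are to be read against the shares over all genes, of which 19.0% rose and 12.4% fell in CCD, 0.466% rose and 1.87% fell in cTAL, and 11.8% and 3.44% had a more positive or more negative difference. Of 32 oxidative phosphorylation genes 21 rose and 1 fell in CCD and 1 fell in cTAL, and the difference was called as more positive for 12 (1 on set means, Cyc1, at 0.44, and 0 with the set as a block), with medians of 0.16 and -0.05. After median-of-ratios scaling the difference was called for 1 more positive and 1 more negative gene of the list. After quantile normalization it was called for 14 more positive and 0 more negative genes, so this count depends on the scaling. Cyc1, of respiratory complex III, went from a median of 1208 to 1445 TPM in CCD and from 1534 to 1388 TPM in cTAL. Of 18 glycolysis genes 7 rose and 2 fell in CCD and 1 rose in cTAL, and the difference was called as more positive for 5 (2 on set means, and 1 with the set as a block). Gapdh, a glycolytic enzyme often used as a reference, went from a median of 1787 to 2990 TPM in CCD without overlap and stood at 1667 and 1634 TPM in cTAL, a difference of 0.83 (SE 0.08) that was also called on set means (limma adjusted p = 0.000497). Of 21 fatty acid oxidation genes 11 fell and 1 rose in CCD and 4 fell in cTAL, with the difference called for 2 more positive and 3 more negative genes (1 and 0 on set means). Of 20 ribosome biogenesis genes 11 rose in CCD and 0 was called in cTAL, and the difference was called for 7, among them Fbl (0.87), Dkc1 (0.68) and Nop56 (0.64), and for 0 on set means.

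Steroid response and clock genes had negative median effects in both segments. Their counts stand beside all genes, of which 19.0% rose and 12.4% fell in CCD and 1.87% fell in cTAL. The difference was called for 15.3% of all genes. Of 18 mineralocorticoid and glucocorticoid response genes 9 fell and 1 rose in CCD and 2 fell in cTAL, with medians of -0.39 and -0.47, and all 18 cTAL effects were below 0 (8478 of 13083 were over all genes). The difference was called for 2, Nfkbia, the NF-kB inhibitor (0.85), and Ddit4, an inhibitor of mTOR (-0.84), neither of them on set means. Of 17 clock genes 6 fell and 1 rose in CCD and 2 fell in cTAL, with medians of -0.13 and -0.46. The difference was called for 2 more positive genes, Cry1 (1.49) and Per2 (0.96), and 1 more negative gene, Nr1d1 (-1.48). Each is a clock repressor, and each was called over libraries only (0 on set means). The labels give no clock time of dissection. Of 12 genes of inositol metabolism and glycogen synthase kinase 3, the direct targets of lithium among them, the difference was called for Impa2, an inositol monophosphatase, at 0.41 (SE 0.10), and for 0 genes on set means. This call depends on the scaling. Median-of-ratios scaling gave 0 more positive and 1 more negative gene of the list, and quantile normalization 1 and 1. Without the libraries with AC095947.2 the difference was called for 0 genes of the list.

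In the lists that remain, the difference was called for 2 of 23 unfolded protein response, 2 of 13 heat shock, 1 of 19 sterol synthesis, 3 of 16 Nrf2 and glutathione and 3 of 16 BMP and TGF-beta genes, against 15.3% of all genes. Among markers of cells other than CCD or cTAL epithelium, the difference was called for 0 of 14 proximal tubule, 0 of 16 immune, 0 of 7 fibroblast and smooth muscle and 1 of 9 endothelial genes (Esam, -1.20). It was called for 2 of 9 genes of the distal convoluted and connecting tubule and for 5 of 17 of the thick ascending limb, among them Cldn19, Kng2, Cldn14 and Ppp1r1b, an inhibitor of protein phosphatase 1 (1.58).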

How the data were processed

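Poly(A) RNA of dissected segments was made into cDNA with SMARTer version 4 (15 PCR cycles) and into libraries from 1 ng with Nextera XT, per the labels' protocols. The deposited values are TPM per gene, which the authors made with STAR 2.5.2b and RSEM 1.2.31 on Rnor_6.0, per the submitters' processing notes. TPM keeps no depth, so no counting error can be given; libraries had 10888 to 12411 genes at 1 TPM or more. No 2 libraries were identical.

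From TPM, log2(TPM + 1) values entered 1 limma model (version 3.58.1, R 4.3.3; 4 group means, trended eBayes, two-sided, BH over 13083 genes, adjusted p under 0.05), after tests on simulated data. Genes entered at 1 TPM in at least 10 libraries. Sets were found from 7 genes with 2 separate states, both seen within a group of each segment, and their number was fixed at 4 per treatment. Deviations of same-set CCD and cTAL libraries correlated at 0.113 to 0.557. In each set this was above the highest correlation with another set, but barely so in set A (0.113 against 0.111).

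Members and gene lists were chosen with earlier results of these data known. Of 650 listed symbols 636 matched. Named genes were a panel of 10 transport genes, the 10 most positive and 10 most negative differences called in both fits, the 10 largest effects of each class, at a mean of at least 5 TPM, and the 4 members of each list with the smallest p for the difference. Alternatives were other pseudocounts, filters, scalings, blocks, set means, single segments and, chosen after seeing the data, leaving out the libraries with AC095947.2. Libraries at other times were not used.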

Additional observations from a re-analysis of the deposited data

Results flagged for a closer look

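Among genes whose lithium effects differed between the segments by the interaction test of limma, both over libraries and on set means, the 10 most positive and the 10 most negative differences are given as a description, since the test chose them. With the set as a block Cga was not called (limma adjusted p = 0.071). In log2(TPM + 1) these differences were 5.88 for Ccl20, 4.90 for Mmp2, 4.04 for Phlda3, 4.02 for Pdlim1, 3.77 for Ccna2, 3.73 for Ctrb1, 3.71 for Lcn2, 3.71 for Ns5atp9, 3.70 for Ube2c and 3.68 for Tubb6. On the negative side they were -2.86 for Gdpd2, -2.30 for Defb29, -2.18 for Ier3, -2.15 for Mt3, -1.98 for Kcnj13, -1.82 for Txk, -1.80 for Cldn19, -1.53 for Cga, -1.49 for Lrrc31 and -1.48 for Ttll3.

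In the group of 10 cTAL lithium libraries, the only group small enough for the test, 1 library stood far from the others for 9 of 165 named genes, where chance gives about 1 in 20. Library 8 held the highest Hsd11b2 (86.16 TPM) and the only Ctrb1 (0.05 TPM), library 7 the highest Txk (2.38 TPM) and Aurkb (6.60 TPM), library 5 the highest Cldn19 (485.6 TPM) and Cga (0.35 TPM), and library 2 the highest Rassf10 (21.67 TPM). Library 2 also had an outlying Ctss at 9.02 TPM and library 9 an outlying Cdk1 at 0.21 TPM.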

How the results depend on the processing

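Over libraries 2000 genes were called for the difference, 4105 in CCD, 306 in cTAL, 56 shared, 112 opposite, 1597 CCD-only and 84 cTAL-only. On set means these were 485, 1025, 1, 0, 0, 455 and 1, and leaving out 1 set gave 283 to 563, 668 to 1421, 0 to 19, 0 to 1, 0 to 14, 261 to 537 and 0 to 4. With the set as a block 489 genes were called for the difference, 394 of them among the 485, and 142 with that block and without the libraries with AC095947.2. Of the named genes, this block lost the set-mean calls of Cga, Cdkn1a, Atp6v0d2, Ccnd1, Cyc1 and Pgam1 and added Scnn1a, Crabp1, Acot7 and Adcy3. Without those libraries, 103 genes were called in cTAL, 28 were shared, 38 opposite and 23 cTAL-only. With an estimated correlation within sets, 2554 were called for the difference, 2608 in CCD and 77 in cTAL, and 8 were shared, 46 opposite, 1710 CCD-only and 22 cTAL-only. With each segment fitted alone, 78 were called in cTAL, 14 were shared, 46 opposite and 15 cTAL-only. No filter gave 26 shared genes, a pseudocount of 0.1 gave 49 cTAL-only genes and a pseudocount of 5 gave 71 opposite genes. With the replicate number as a block, 1932 genes were called for the difference, 154 in cTAL, 25 shared, 74 opposite and 43 cTAL-only. The numbers do not pair the libraries: correlations of same-numbered libraries ran from -0.188 to 0.339, and at most 3 of 12 pairs of any 2 groups correlated best with their own number. The causes of these changes were not tested, except that set means have fewer values.

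Differences that were not called changed sign as follows. Aqp3 went to -0.0045 (median-of-ratios), -0.0669 (quantile), -0.0960 (pseudocount 5), -0.0473 (replicate block) and -0.1171 (without the libraries with AC095947.2), and ranged from -0.0970 to 0.4662 on set means without 1 set. On set means without 1 set, Aqp2 ranged from -0.2557 to 0.2920 and Slc26a4 from -0.1866 to 0.3328. At a pseudocount of 0.1, Scnn1g went to 0.1682 and Slc26a4 to 0.2131, and Slc26a4 went to 0.0575 without the libraries with AC095947.2. Of the named effects 65 stayed on their side of the threshold on set means and 75 lost the call. Depth is unknown for TPM.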
